A study of Homo sapiens with 2 samples.

Results

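The genes described here lie at the end of the short arm of human chromosome 1, around ISG15, a ubiquitin-like modifier induced by interferon. They were taken as all rows of the deposited count table on chromosome 1 whose start lies below 2500000 (GRCh38), with ISG15 and NOC2L left out, which gave 105 of 20981 listed genes. RNA was sequenced from PANC-1 cells, an established line from a carcinoma of the pancreatic duct, carrying either a control short hairpin (shCtrl) or a hairpin named for WBSCR22 (shWBSCR22), the older symbol of the ribosomal RNA methyltransferase BUD23. Medium and extraction were the same for both per the labels, which name neither the hairpin sequences nor a clone. Each group was 1 library, so no difference below has a replicate check and each value compares these libraries, not the conditions.

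The tip of this arm is gene-dense and rich in G and C, and it holds duplicated gene pairs as well as copies of mitochondrial DNA that moved into the nuclear genome. Its residents have unrelated jobs, from Notch-family repressors and Wnt signalling to mitochondrial membrane proteins,. HES4, the nearest protein-coding neighbour of ISG15 on the telomere side, encodes a basic helix-loop-helix repressor of the family that answers Notch signalling. Interferon acts on ISG15 through a DNA motif, the interferon-stimulated response element, and Notch acts through the DNA-binding protein RBPJ.

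The start-site windows of HES4, of ISG15 beside it, and of the further neighbours AL645608.1 and SAMD11 are shown because these genes were all higher in the shWBSCR22 library. Each runs from 250 bases before to 50 after the RefSeq start, in the direction of the gene, on chromosome 1 of GRCh38.p14. Capitals mark every match, on either strand, to GAAA, any 2 bases and GAAA again (the core of the interferon element) or to TGGGAA (the core of an RBPJ site).
HES4, chr1:1000048-1000347, minus strand: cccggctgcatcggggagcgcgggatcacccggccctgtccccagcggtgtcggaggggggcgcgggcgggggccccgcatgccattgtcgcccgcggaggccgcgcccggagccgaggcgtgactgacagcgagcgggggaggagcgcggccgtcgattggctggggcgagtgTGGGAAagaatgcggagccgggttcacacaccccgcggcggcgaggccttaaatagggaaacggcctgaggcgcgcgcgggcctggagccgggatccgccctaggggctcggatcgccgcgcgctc
ISG15, chr1:1013247-1013546, plus strand: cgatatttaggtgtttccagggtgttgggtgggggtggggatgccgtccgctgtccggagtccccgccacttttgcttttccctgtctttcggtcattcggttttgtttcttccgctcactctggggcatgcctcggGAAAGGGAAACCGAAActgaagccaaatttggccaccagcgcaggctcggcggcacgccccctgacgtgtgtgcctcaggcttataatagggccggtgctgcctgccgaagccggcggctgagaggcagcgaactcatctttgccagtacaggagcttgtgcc
AL645608.1, chr1:919643-919942, minus strand: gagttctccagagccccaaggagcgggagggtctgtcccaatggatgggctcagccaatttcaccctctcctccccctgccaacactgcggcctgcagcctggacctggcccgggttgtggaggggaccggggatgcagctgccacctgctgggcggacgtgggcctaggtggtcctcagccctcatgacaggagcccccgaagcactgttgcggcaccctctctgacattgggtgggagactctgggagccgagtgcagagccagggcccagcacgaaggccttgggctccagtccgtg
SAMD11, chr1:925481-925780, plus strand: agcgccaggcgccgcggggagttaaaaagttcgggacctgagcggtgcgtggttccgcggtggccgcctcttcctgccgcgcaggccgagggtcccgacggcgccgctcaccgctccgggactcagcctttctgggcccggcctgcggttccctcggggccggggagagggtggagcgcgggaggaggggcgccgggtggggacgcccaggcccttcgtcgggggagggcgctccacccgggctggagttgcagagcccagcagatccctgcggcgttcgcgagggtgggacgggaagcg
The ISG15 window held 2 overlapping matches to the interferon motif, and the windows of HES4, AL645608.1 and SAMD11 held 0. HES4 held 1 match to the RBPJ motif and the other three held none. Over 35116 RefSeq windows of the same 300 bases, 1255 (3.57%) held the interferon motif and 8439 the RBPJ motif. A window could be matched to 50 of the 105 genes, and among them C1orf159 alone held the interferon motif and 5 held the RBPJ motif. The deposited start of ISG15 (1001138, 966 bases from the end of HES4) belongs to a longer GENCODE transcript, and the RefSeq start lies 12359 bases further on. RefSeq and deposited starts also differed for AL645608.1, by -1324 bases in chromosome coordinates, and for SAMD11, by 1803. The windows of ISG15, AL645608.1 and SAMD11 therefore do not hold the deposited starts, around which motifs were not searched.

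The deposited counts summed to 16121638 in shCtrl and 15248099 in shWBSCR22. BUD23 had 3487 and 1892 counts, 27.1 and 15.6 FPKM (counts per length and depth). Its log2 ratio of shWBSCR22 over shCtrl was -0.72 after scaling of the libraries by trimmed mean of M-values (TMM). Of 6 ductal epithelium markers, KRT7, KRT8, KRT18 and MUC1 had at least 4734 counts in either library, EPCAM had 15 and 0, and KRT19 was listed at 0 in both; the identity of the cells beyond these markers was not tested. The 2 listed leukocyte markers of 4 had 43 and 36 counts in sum, and none of 4 acinar markers was listed in the tables used here.

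Of the 105 genes 53 are protein-coding and 52 are noncoding RNAs or pseudogenes. In 11 the count was 0 in both libraries. A further 27 had counts but a mean under 1 CPM (counts per 1e6 scaled reads), which left 67 for comparison. These 67 include AL669831.1 and PERM1, which passed only through their counts in shCtrl and so had to be lower. They also include AL669831.5 (6 and 31 counts) and AL645608.3 (10 and 55), which were under 1 CPM in shCtrl. Both passed only through shWBSCR22 and so had to be higher. All of these genes are among the calls by the first rule below. PEX10 (16 and 16 counts) also passed only through shWBSCR22, with 0.963 and 1.08 CPM, and was not called. Together the 105 genes took 0.508% of the counts in shCtrl and 0.511% in shWBSCR22. At the edge of the region AL139246.4, the last gene inside, had 7 and 0 counts, and PANK4, the first outside, had 202 and 111.

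Calls required a log2 ratio of 1 or more, up or down, and a 95% counting interval without 0. By this rule 11 of the 67 genes were higher and 6 lower, against 12.2% and 11.9% of all 12980 compared genes. The share called in either direction was 25.4% in the region and 24.1% over all genes, which are near each other. A tally of genes over the low counts had its peak at 8 for shCtrl and at 15 for shWBSCR22. Whether reads came in clumps of these sizes was not tested. A wider interval, which treats them as if they did, was made from counts divided by 8 and 15. Intervals below are of that kind. With it 5 of the 67 genes were higher (HES4, AL645608.1, SAMD11, C1QTNF12 and TMEM52) and 1 lower (AL390719.1), or 8.96% against 7.17% of all genes, 4.19% higher and 2.98% lower. The median log2 ratio of the 67 was -0.02, with quartiles of -0.44 and 0.44, beside -0.02 over all compared genes and 0.0020 over 1261 other genes of chromosome 1. The region as a whole therefore had a middle and a spread near those of all compared genes, whose quartiles were -0.51 and 0.50. Its called genes, described singly below, were also a share near that of all genes.

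**Figure D1:**
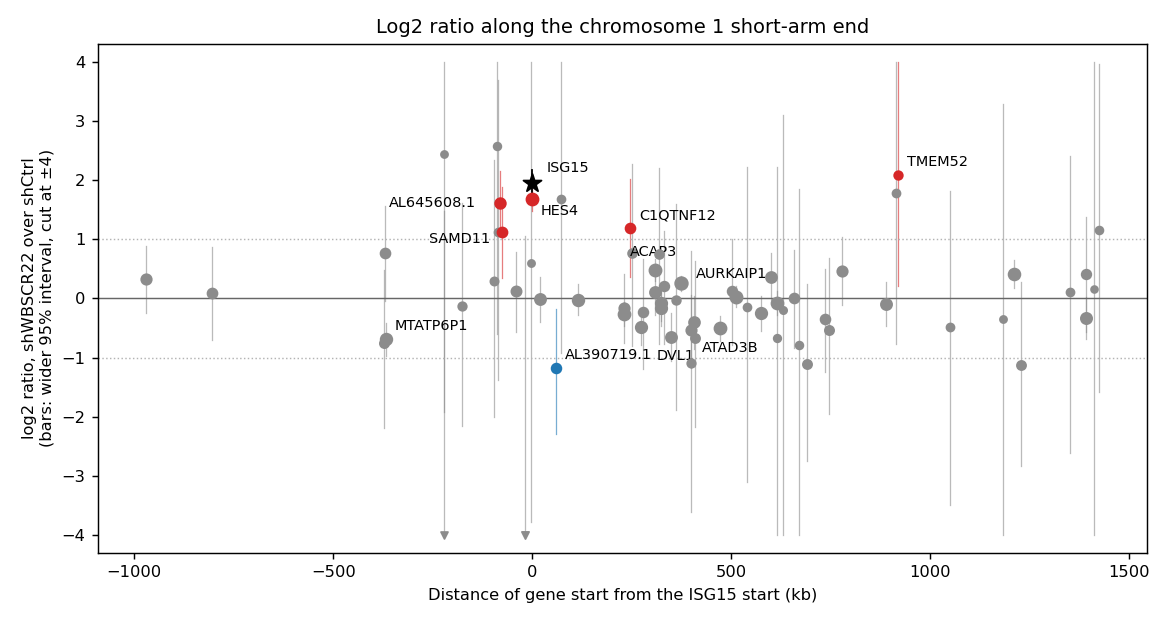
Log2 ratio of shWBSCR22 over shCtrl (vertical axis) against the distance of each gene's start from the ISG15 start in kb (horizontal axis), for the 67 compared genes, with bars for the wider 95% interval and larger points for more abundant genes. Red and blue points are the 5 genes called higher and the 1 called lower with the wider interval, the star is ISG15, and triangles are 2 genes below -4 on the log2 scale.

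HES4 had the largest log2 ratio among the 26 genes of the region with a mean of 30 CPM or more. HES4 (ENSG00000188290, chr1:998962-1000172, minus strand) gave 2643 counts in the control and 7565 with the WBSCR22 hairpin, equal to 146 and 442 FPKM. It was 3.21-fold higher, with a log2 ratio of 1.68 (1.48 to 1.89). Among the 105 genes it ranked 3 by FPKM in shCtrl and 2 in shWBSCR22. Of 837 genes at a level between 0.5 and 2 times its own, itself included, 1 had a higher ratio, and that gene was ISG15. ISG15 had 2271 and 7848 counts, a log2 ratio of 1.95 (1.74 to 2.17), so that within each library HES4 and ISG15 had counts of similar size. In bulk RNA, more cells with a transcript and more transcript per cell cannot be told apart.

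Further out on the telomere side lies a second group of higher genes. AL645608.1 (chr1:916865-921016, minus strand), an uncharacterized noncoding locus that ends 80.1 kb before the ISG15 start, had 421 and 1146 counts, which are 25.4 and 77.4 CPM; its log2 ratio was 1.61 (1.09 to 2.15). A higher ratio was found in 17 of 2579 genes at its level. SAMD11, a sterile alpha motif protein that starts 2912 bases from it in the opposite direction, had 243 and 470 counts, a log2 ratio of 1.12 (0.35 to 1.89). Both were higher in the shWBSCR22 library, AL645608.1 by 3.05-fold and SAMD11 by 2.17-fold. Just beyond them, AL645608.3 had 10 and 55 counts and AL645608.5 had 29 and 57. Their log2 ratios were 2.57 and 1.13, and the wider intervals of both held 0. AL645608.3 passed the filter only through shWBSCR22 and so had to be higher. AL645608.7, whose span holds both on the same strand, had 52 and 57 counts. Its log2 ratio was 0.297 and it was not called, so the genes here were not all higher. AL645608.5 has 94.8% of its exon bases inside those of another listed gene, so its counts are uncertain.

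The higher genes near ISG15 were not a continuous block. KLHL17, a kelch protein that binds actin, lies between SAMD11 and HES4 and had 468 and 454 counts (log2 ratio 0.12, -0.56 to 0.78). AL645608.8, next to HES4, had 17 and 23 counts. PERM1, a regulator of muscle metabolism, had 43 and 0 counts, and PLEKHN1, which overlaps it by 662 bases on the other strand, had 0 and 24. With each 0 set to a floor of 3 counts PERM1 was at least 12.8-fold lower and PLEKHN1 at least 8.98-fold higher, which leaves out the error of the 43 and the 24. The counting intervals reached nearer to 0, to -3.31 on the log2 scale for PERM1 and to 2.76 for PLEKHN1. The wider intervals of both held 0, and PLEKHN1 lay under 1 CPM and was not compared. On the other side of ISG15, AGRN, the basement membrane proteoglycan agrin, starts 5582 bases from the ISG15 end and had 1531 and 1351 counts, with a log2 ratio of -0.01 (-0.39 to 0.35). AGRN thus had nearly the same scaled level in both libraries, 92.2 and 91.3 CPM.

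**Figure D2:**
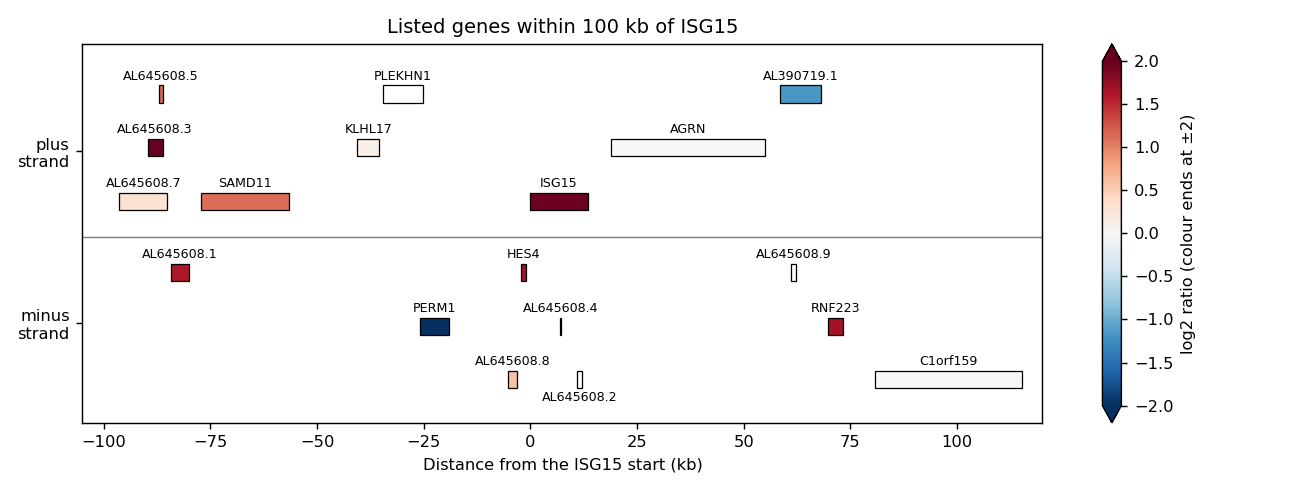
Listed genes within 100 kb of ISG15, drawn to scale by distance from the ISG15 start in kb and split by strand, with colour for the log2 ratio and white for genes not compared; NOC2L is left out. HES4, SAMD11 and AL645608.1 are red on the left of ISG15, with KLHL17 nearly white among them, and AGRN on the right is nearly white.

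Beyond AGRN the first gene was lower. AL390719.1, annotated as a transcribed pseudogene, lies 45.2 kb past the ISG15 end (chr1:1059734-1069355). It had 392 and 155 counts, a log2 ratio of -1.17 (-2.30 to -0.19). RNF223, a RING finger protein, had 21 and 61 counts (1.68, -0.92 to 4.67). C1orf159, a membrane protein of unknown function, had 3008 and 2646 counts, a log2 ratio of -0.02 (-0.29 to 0.24). AL645608.4 and AL645608.2, which lie inside the ISG15 span on the other strand, and AL645608.9 were at 0 in both libraries.

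Counted by distance, a split chosen after the values were seen, 13 genes within 100 kb of ISG15 were compared and 8 of them were called, 6 higher and 2 lower. The 8 include PERM1 and AL645608.3, whose direction the filter fixed, and AL645608.5, whose counts are uncertain. Their share is therefore not read against that of all genes. With the wider interval, which calls none of these, 4 were called (HES4, AL645608.1, SAMD11 and AL390719.1), or 30.8% against 7.17%. Among 54 genes farther away 9 were called, or 16.7% beside 24.1% of all genes. The 9 include AL669831.1 and AL669831.5, whose direction the filter fixed, so this share is not read against that of all genes. With the wider interval 2 of the 54 were called, or 3.70% beside 7.17%. The 13 nearer genes had a median log2 ratio of 0.59 and the 54 farther ones -0.11. The 0.59 is the value of AL645608.8, with 17 and 23 counts, and both sets hold genes whose direction the filter fixed. These medians are therefore descriptions and are not read as a difference. A closer limit did not give the same picture: the 6 compared genes within 50 kb had a median of 0.05, with 3 above and 3 below 0. Of these 6 genes 1 was called higher and 2 lower, and PERM1 is among the lower, so this share is not read either. With the wider interval 1 was higher and 1 lower, or 33.3% against 7.17% of all genes. In steps of 500 kb from the telomere the medians were 0.21 over 2 genes, 0.59 over 15, -0.12 over 24, -0.09 over 17 and 0.10 over 9. The step that ends at ISG15 had the highest median, again the value of AL645608.8, with quartiles of -0.41 and 1.37. It holds AL669831.1, AL669831.5, AL645608.3 and PERM1, whose direction the filter fixed, so it is not read as a peak. The medians of the other steps lay on both sides of 0.

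The list of transcription and RNA genes also holds FAAP20, a gene of DNA repair. Among the 8 compared genes of this list HES4 and SAMD11 were higher and 0 were lower, beside 12.2% higher and 11.9% lower of all genes. The median log2 ratio over the 8 was 0.06. FAAP20, a subunit of the Fanconi anaemia core complex that repairs DNA crosslinks, had 3261 and 3872 counts, a log2 ratio of 0.41 (0.18 to 0.64), short of the size rule. PUSL1, a pseudouridine synthase relative, had 0.11 (-0.28 to 0.48), INTS11, the nuclease of the Integrator complex, -0.17 (-0.47 to 0.13), and SSU72, a phosphatase of the RNA polymerase II tail, -0.25 (-0.55 to 0.03). CCNL2, a cyclin of the splicing-linked kinases CDK11A and CDK11B, had 755 and 464 counts, a log2 ratio of -0.54 (-1.17 to 0.06). CDK11B had 331 and 297 counts and CDK11A 11 and 0; 54.0% of the 50-base words of the CDK11B transcript also occur in its copy, so reads of the pair can be split between them.

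Signalling genes gave 1 higher and 1 lower of 9 compared, or 22.2% called, near the 24.1% of all genes, and neither passed with the wider interval. PLCH2, a phospholipase C, had 25 and 50 counts (1.15, -1.58 to 3.96), and SKI, a repressor of transforming growth factor beta signalling, had 191 and 78 (-1.12, -2.84 to 0.27). The abundant genes of this group had smaller ratios. ACAP3, a GTPase-activating protein for ARF6, had 4967 and 6162 counts, a log2 ratio of 0.48 (0.29 to 0.66). DVL1, which relays Wnt signals from the receptor, had 1819 and 1034 counts and -0.65 (-1.06 to -0.25), and UBE2J2, a ubiquitin-conjugating enzyme of the endoplasmic reticulum, 2816 and 1799 and -0.48 (-0.79 to -0.18). The intervals of these 3 genes excluded 0, with ACAP3 higher and DVL1 and UBE2J2 lower. MIB2, a ubiquitin ligase for Notch ligands, had 5187 and 4400 counts (-0.07, -0.28 to 0.13), and GNB1, a G protein beta subunit, 1650 and 1383 (-0.09, -0.46 to 0.27).

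The mitochondrial genes included the most abundant transcript of the region. AURKAIP1, a protein of the small mitochondrial ribosomal subunit, had 11265 and 12008 counts, equal to 417 and 470 FPKM; its log2 ratio was 0.26 (0.13 to 0.38). MRPL20 of the large subunit had 1323 and 896 counts and -0.40 (-0.85 to 0.04). ATAD3A and ATAD3B, neighbouring copies of an ATPase of the inner mitochondrial membrane, differed from each other. ATAD3B had 6141 and 3856 counts (-0.51, -0.71 to -0.30) and ATAD3A 6236 and 5679 (0.03, -0.15 to 0.21), so that ATAD3B was lower with an interval below 0 and ATAD3A lay near 0. Of the 50-base words of their transcripts 19.6% and 36.4% occur in genes elsewhere, mostly in each other, so the way shared reads were counted bears on this pair. ATAD3C had 0 and 10 counts. Of 5 compared genes in this group 0 were higher and 1 lower, beside 12.2% and 11.9% of all genes; the lower one was PERM1, whose direction the filter fixed.

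Genes of the extracellular matrix and secreted proteins gave 1 higher and 0 lower of 6 compared, or 16.7% called beside 24.1% of all genes. C1QTNF12, the secreted adipokine adipolin (chr1:1242446-1246722), had 207 and 421 counts, equal to 7.14 and 15.3 FPKM; its log2 ratio was 1.19 (0.37 to 2.02). FNDC10, a fibronectin type III domain protein, had 1146 and 1320 counts and 0.37 (-0.03 to 0.76). B3GALT6, which builds the linker of proteoglycan sugar chains, had 691 and 551 and -0.16 (-0.76 to 0.41). MXRA8 and MMP23B had at most 88 counts.

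Of 6 compared genes of the secretory pathway and other organelles 0 were higher and 1 lower (16.7% called, beside 24.1% of all genes). The lower one was SLC35E2B, with 204 and 84 counts (-1.11, -2.75 to 0.24) and 53.0% of its 50-base words in its copy SLC35E2 (185 and 113 counts). SDF4, a calcium-binding protein of the Golgi, had 5329 and 3957 counts and -0.26 (-0.47 to -0.06). CPTP, which carries ceramide-1-phosphate between membranes, had 2444 and 2052 (-0.09, -0.39 to 0.21), and RER1, a sorting receptor that returns proteins to the endoplasmic reticulum, 1975 and 1404 (-0.33, -0.69 to 0.02). The median of the 6 log2 ratios was -0.29. The 1 ratio above 0 was that of PEX10 (0.17), whose direction the filter fixed. Among receptors and channels SCNN1D, a sodium channel subunit, and TAS1R3, a subunit of sweet and umami taste receptors, had 302 and 229 and 232 and 239 counts. The tumour necrosis factor receptors TNFRSF18 and TNFRSF4 had 18 and 8 and 0 and 18, under 1 CPM. NADK, which makes NADP from NAD, had 547 and 674 counts (0.47, -0.11 to 1.03).

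**Figure D3:**
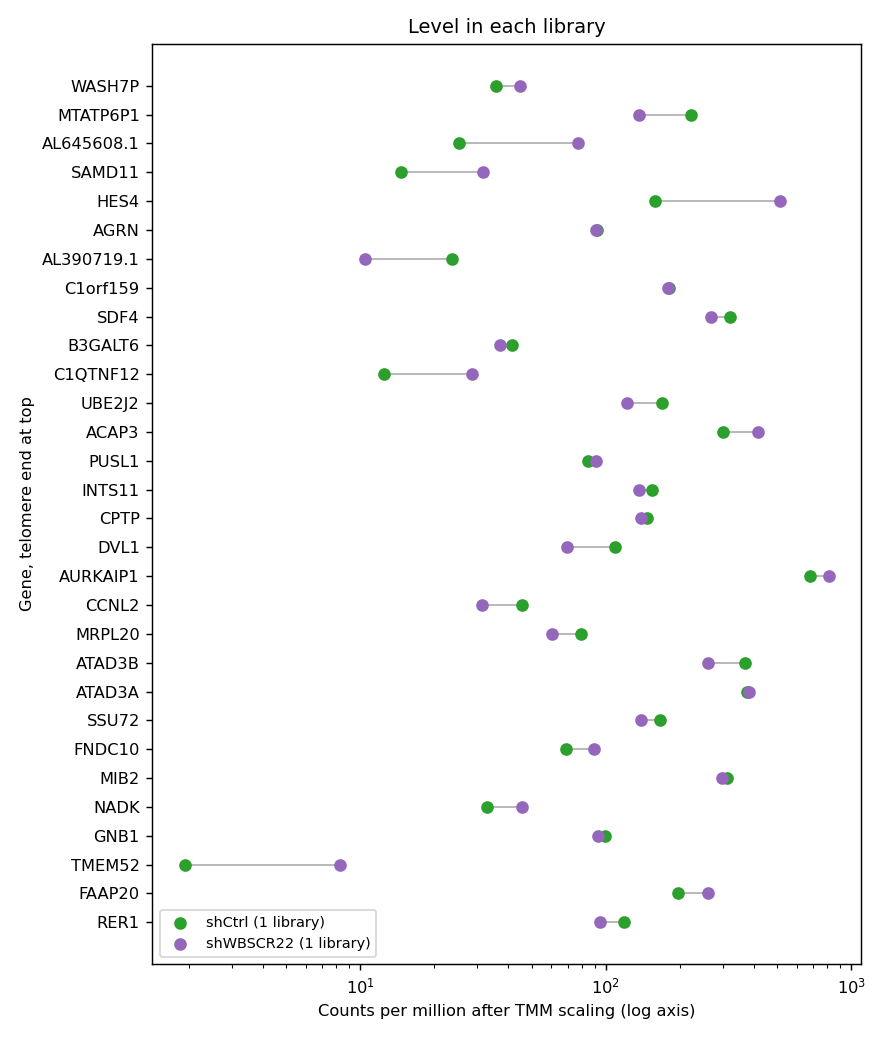
Scaled level in CPM on a log axis in shCtrl (green) and shWBSCR22 (purple) for the 26 genes averaging 30 CPM or more and those called with the wider interval, ordered from the telomere. HES4 moves from 159 to 511 CPM and AL645608.1 from 25.4 to 77.4, while AGRN, C1orf159 and ATAD3A have points that nearly coincide.

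A further adjacent pair was higher far from ISG15. CALML6, a calmodulin-like protein, and TMEM52, a membrane protein, point towards each other with ends 294 bases apart. TMEM52 (chr1:1917590-1919273) had 32 and 122 counts, a log2 ratio of 2.08 (0.21 to 4.27), and CALML6 had 21 and 65 (1.77, -0.76 to 4.73). Both are low transcripts, with at most 5.00 FPKM. Whether counting used strand is not stated here. Where genes on opposite strands overlap, or reads run past the end of a gene, the source of a read may therefore be uncertain. CALML6 and TMEM52 do not overlap by their deposited coordinates.

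Of the 3 compared pseudogenes of mitochondrial DNA, none was called by either interval. MTATP6P1 (chr1:633696-634376), a nuclear copy of the gene for ATP synthase subunit 6, had 3678 and 2028 counts, a log2 ratio of -0.69 (-0.98 to -0.41). Its mitochondrial source MT-ATP6 had 143811 and 135636 counts, a log2 ratio of 0.08 (0.04 to 0.12), and 46.7% of the 50-base words of the copy occur in it. MTND2P28 had 205 and 108 counts (-0.76, -2.19 to 0.47) beside -0.46 for MT-ND2, and MTCO1P12 had 258 and 391 (0.76, -0.04 to 1.56) beside -0.07 for MT-CO1. WASH7P, a pseudogene of a WASH complex subunit with 92.5% of its words elsewhere, had 594 and 665 counts (0.33, -0.24 to 0.88).

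At a mean of 30 CPM or more there were 26 genes, of which 2 were higher, HES4 and AL645608.1, with 0 lower by either interval. That is 7.69% against 5.00% of all 3803 genes at this level. The median log2 ratio of the 26 was -0.08, beside 0.01 for all genes at this level.

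**Figure D4:**
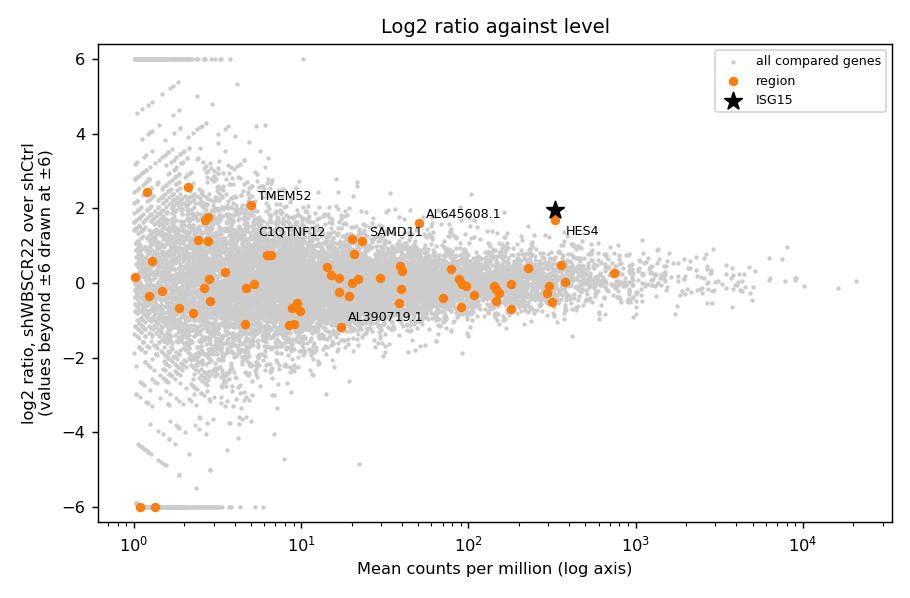
Log2 ratio against mean CPM on a log axis for all 12980 compared genes (grey), the 67 of the region (orange) and ISG15 (star). HES4 and ISG15 lie together at about the same level at the upper edge of the cloud, whereas most other points of the region lie inside it.

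The region is GC-rich. The median GC of the longest GENCODE transcript was 61.1% over the 67 genes and 49.6% over all compared genes. Of the 67, 37 had at least 60% GC, with a median log2 ratio of 0.12, beside 0.13 for all 2165 such genes. At 65% GC or more the region lay below the table, with a median of 0.0083 over 22 genes beside 0.22 over all 554. The 30 genes under 60% had -0.34, beside -0.05 for all 10802. Across the 67 genes Pearson's r of GC and log2 ratio was 0.05 and Spearman's rho 0.28, beside 0.060 and 0.066 over 12967 compared genes. Across the 26 at 30 CPM or more r and rho were 0.47 and 0.50, beside 0.13 and 0.14 over 3803 genes. These points share both libraries, so the values are descriptions. All 5 genes higher with the wider interval had at least 60% GC, and so did AL390719.1, the lower one.

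HES4 had the highest GC of the 67, 73.9%. The 55 compared genes between 70% and 75% had a median log2 ratio of 0.65, so a part of the table with similar GC lay above 0 as well. Within 5 points of its GC and between 0.5 and 2 times its level there were 14 genes, itself included, of which 0 had a higher ratio. The same count for AL645608.1, at 61.7% GC, gave 11 higher of 869, for SAMD11, at 66.8%, 27 of 350, for C1QTNF12, at 69.2%, 17 of 179, and for TMEM52, at 63.5%, 37 of 553. GC-rich genes did not all share the direction: DVL1, at 67.2%, was lower than 280 of 298 such genes. The part of GC content in these ratios was not tested.

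**Figure D5:**
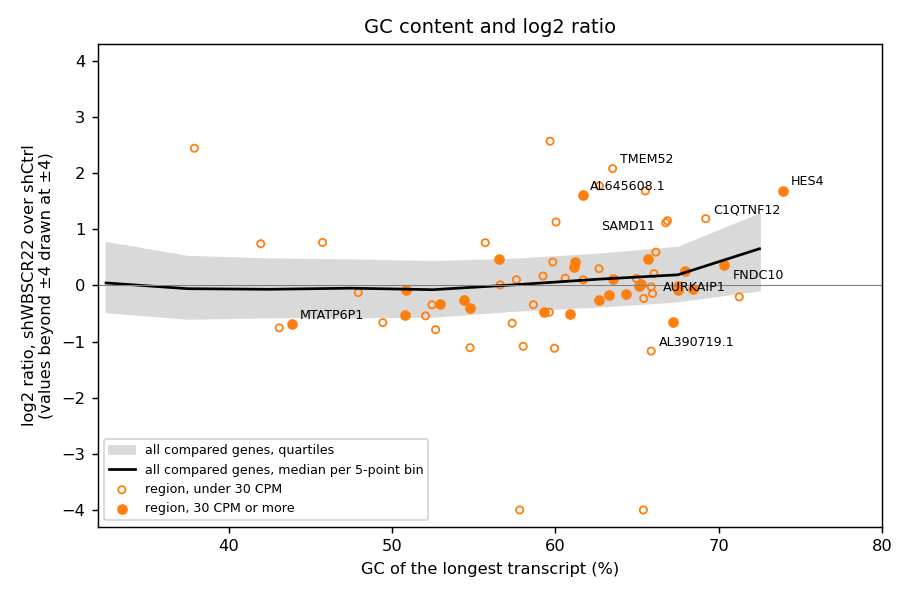
Log2 ratio against the GC percent of the longest transcript for the 67 genes (filled at 30 CPM or more, open below), with the median (line) and quartiles (grey) of all compared genes in bins of 5 points. The line rises from about 0 to 0.65 in the last bin, and HES4, at 73.9% GC, lies above the grey band.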

How the data were processed

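The authors deposited raw counts per gene and FPKM per gene for 1 shCtrl and 1 shWBSCR22 library. Per the submitters' processing notes the build was GRCh38 and the tools included HISAT2, StringTie, DESeq, FastQC and bcl2fastq; their roles, versions, the annotation and any use of strand are not stated. All 105 identifiers were in GENCODE release 29, which gave gene type, exons and GC; printed gene coordinates are those of the deposited tables. Genes averaging 1 CPM or more were scaled by TMM (edgeR 4.0.16, R 4.3.3), with 0.5 counts added before the log2 ratio. Intervals are exact conditional binomial (Clopper-Pearson) at 95%, and cover counting error only; the wider one divides counts by 8 and 15. No p-value was computed. The procedure was tested on simulated data. Words of 50 bases were matched to all other GENCODE transcripts of genes that do not overlap. Promoters are from RefSeq (GRCh38.p14). Named genes are those with at least 30 CPM, those called with the wider interval, the 5 nearest on each side of ISG15, and called members of the role groups; others were chosen after their values were seen. The region, lists and rules were chosen with earlier results of these data known. Alternatives covered scaling (DESeq2 1.42.0 among others), filters, deposited FPKM and the region's limits.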

Additional observations from a re-analysis of the deposited data

How the results depend on the processing

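Across all alternatives the median log2 ratio of the region stayed between -0.11 and 0.04. Other scalings, 2 counts added and FPKM with a pseudocount of 0.1 kept the counts of calls within 1.5 times of 11 higher and 6 lower, as did region ends at 2000000 and 5000000 and the inclusion of ISG15. The counts were 4 and 1 with FPKM and a pseudocount of 1, 18 and 17 with no filter beyond 1 count, 4 and 3 at 5 CPM, 2 and 0 at 30 CPM, 6 and 2 without genes that overlap another listed gene, 5 and 1 with the wider interval, and 7 and 3 with protein-coding genes alone, an alternative chosen after seeing the data. Fewer genes were tested in all of these but the no-filter, FPKM and wider-interval settings. The median of the GC-rich genes was -0.086 where GC-rich meant a promoter of at least 68% GC (25 genes), against 0.12 by transcript, and the cause was not tested. Of 238 values of 34 named genes under 7 alternatives, 0 changed sign after a call. SAMD11 lost its call with FPKM and a pseudocount of 1 (0.86), and PERM1 lost its own with that (-0.83) and with the wider interval. HES4 ranged from 1.59 to 1.70 and AL645608.1 from 1.39 to 1.62. No paired analysis was possible because each group holds a single library, which also leaves no library to leave out.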

Other observations

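By their deposited starts HES4 and ISG15 lie back to back, although the RefSeq start of ISG15 is farther off. Among all listed genes, 92 pairs on opposite strands, with deposited starts under 2 kb apart and no overlap, had a mean of at least 30 CPM in both genes. HES4 with ISG15 was the 1 pair of these in which both genes were called higher with the wider interval; 0 pairs were both lower, and 8 held a called gene. Pearson's r between the log2 ratios of the partners was 0.14 over the 92 pairs and 0.02 without HES4 and ISG15. Among 725 pairs at 1 CPM or more it was 0.02, with 4 pairs both higher, 0 both lower and 2 in opposite directions. The pairs share both libraries, so these values are descriptions, and the choice of pairs was made after the values of HES4 and ISG15 were seen.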
